A study of Homo sapiens with 4 samples.

Results

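The 9 miRNAs described here are the measured members of 3 oncomiR seed families. They were chosen by name: hsa-miR-17-5p, hsa-miR-20a-5p, hsa-miR-20b-5p, hsa-miR-93-5p, hsa-miR-106a-5p and hsa-miR-106b-5p carry the miR-17 seed, hsa-miR-18a-5p carries the miR-18 seed, and hsa-miR-19a-3p and hsa-miR-19b-3p carry the miR-19 seed. All 9 were listed in both deposited count tables, which shared 539 miRNAs. The naming rule holds no measured value, although it was set with earlier results of these data known. The study sequenced small RNA of extracellular vesicles (EVs) that MDA-MB-231 cells release. This established line was derived from a human breast carcinoma of the triple-negative class, and the labels give it as WT. The group 231 EV came from cells in EV-free DMEM with glucose and the group 231 -G EV from cells in medium without glucose, each for 12 h before vesicles were pelleted at 110000 × g for 70 min. Each group had 2 libraries. Replicate number 1 marked a preparation in which the RNA was pretreated to remove modifications and inserts of 14 to 40 nt were kept, and replicate number 2 marked an NEBNext small RNA preparation, for which the labels also name a TruSeq RNA kit, so a number named a pair of libraries of the same preparation (pair 1 and pair 2). The labels do not say whether the libraries came from separate cultures.

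MiRNAs guide the silencing complex to messenger RNAs through bases 2 to 8 of the mature strand, the seed, so miRNAs with the same seed are expected to share many targets. Most of these miRNAs are cut from polycistronic transcripts, in which several hairpins are released from a single RNA. The miR-17-92 transcript, amplified or raised in lymphomas and many solid tumours, gave the name oncomiR to the group. The miR-17 seed is known for repression of CDKN1A, an inhibitor of the cell cycle, and of BCL2L11, a promoter of cell death.

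The mature sequences show how little separates the members, and so which read counts rest on a single base. They are given 5′ to 3′ from RefSeq (GRCh38.p14), with the seed in capitals.
hsa-miR-17-5p: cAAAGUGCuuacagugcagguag
hsa-miR-106a-5p: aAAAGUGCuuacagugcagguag
hsa-miR-20a-5p: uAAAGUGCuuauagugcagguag
hsa-miR-20b-5p: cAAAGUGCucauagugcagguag
hsa-miR-93-5p: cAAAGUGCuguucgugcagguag
hsa-miR-106b-5p: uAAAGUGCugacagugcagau
hsa-miR-18a-5p: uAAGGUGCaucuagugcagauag
hsa-miR-19a-3p: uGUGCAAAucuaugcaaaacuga
hsa-miR-19b-3p: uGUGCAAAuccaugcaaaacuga

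Positions are counted from 1 at the 5′ end, with the base of the first-named miRNA first. From hsa-miR-17-5p, hsa-miR-106a-5p differed by C1A alone and hsa-miR-20a-5p by C1U and C12U. hsa-miR-19a-3p and hsa-miR-19b-3p differed by U11C alone. hsa-miR-93-5p and hsa-miR-106b-5p, by contrast, each differed from the other members of their family at 3 to 5 positions, hsa-miR-106b-5p over its 21 bases. The study's methods say that known miRNAs were counted from sequences that matched miRBase closely in a BLAST search. They do not say how a read that matches several members was assigned, so counts of hsa-miR-17-5p against hsa-miR-106a-5p, and of hsa-miR-19a-3p against hsa-miR-19b-3p, are uncertain as separate values. The seed AAAGUGC was shared by 8 of 2370 mature names in RefSeq, AAGGUGC by 3 and GUGCAAA by 2.

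The members come from 3 clusters. On chromosome 13, hsa-miR-17-5p (chr13:91350618-91350640), hsa-miR-18a-5p (chr13:91350756-91350778), hsa-miR-19a-3p (chr13:91350939-91350961), hsa-miR-20a-5p (chr13:91351072-91351094) and a copy of hsa-miR-19b-3p (chr13:91351245-91351267) lie on the plus strand within MIR17HG, the non-coding host of miR-17-92, over an exon in 2 of the 3 annotated transcripts that span them. On chromosome 7, hsa-miR-93-5p (chr7:100093815-100093837) and hsa-miR-106b-5p (chr7:100094043-100094063) lie on the minus strand within the protein-coding gene MCM7, a subunit of the replicative helicase, over no exon of the 8 transcripts that span them. On chromosome X, hsa-miR-20b-5p (chrX:134169850-134169872), hsa-miR-106a-5p (chrX:134170244-134170266) and a copy of hsa-miR-19b-3p (chrX:134169683-134169705) lie on the minus strand over an exon of the non-coding gene AC002407.1. Both copies give the same mature hsa-miR-19b-3p, whose reads could not be divided between them.

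The libraries of pair 1 were shallow. They held 18397 miRNA reads in 231 EV and 15597 in 231 -G EV, against 224966 and 170894 in pair 2, so that 1 read was worth 54.4, 64.1, 4.45 and 5.85 reads per 1000000 reads of the library (CPM). A count of 0 allowed up to 3 reads, or 163, 192, 13.3 and 17.6 CPM in the same order. The 231 EV library of pair 1 stood apart: hsa-miR-182-5p took 51.0% of its reads, against 2.73% in the 231 -G EV library of that pair and 0.254% and 0.250% in pair 2. A list of 9 blood cell and serum miRNAs took 20.2% and 43.3% of the reads in pair 1 against 1.78% and 0.816% in pair 2, with 7 to 9 of the 9 above 0 and hsa-miR-144-5p at 0 in both libraries of pair 1 and hsa-miR-150-5p in its 231 EV library. In pair 1 nearly all of this sum was hsa-miR-451a, with 3577 of 3716 and 6364 of 6756 reads, while hsa-miR-223-3p and hsa-miR-142-3p had 2 or 3 reads in each library of pair 1 and 158 to 858 reads in those of pair 2. A total without the list is thus, in pair 1, close to a total without hsa-miR-451a. A list of 4 miRNAs of mesenchymal-like breast cancer lines, all above 0, took 2.09% and 3.01% in pair 1 against 35.9% and 28.7% in pair 2. Most of this sum was hsa-miR-21-5p, with 356 of 385 and 430 of 469 reads in pair 1. In pair 2 it had 68029 of 80850 and 39805 of 48997 reads. From 231 EV to 231 -G EV, hsa-miR-221-3p and hsa-miR-222-3p moved against the sum in both pairs and hsa-miR-100-5p moved with it. The labels call the line an epithelial cell. Of 7 epithelial miRNAs, 6 or 7 were above 0, with 0.0205% to 0.583% of the reads, and hsa-miR-205-5p was at 0 in 231 EV of pair 1 and hsa-miR-203a-3p in 231 -G EV of pair 2. The results of pair 1 are given below also with hsa-miR-182-5p or the blood and serum list taken out of the library totals. The preparation and the depth cannot be told apart from the other differences between the pairs. All values are shares of sequenced miRNA, so the number of vesicles and the amount of miRNA per vesicle cannot be told apart.

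hsa-miR-93-5p was the most abundant member in pair 2. It had 1033 CPM in 231 EV and 2180 CPM in 231 -G EV of pair 1, and 15185 and 22376 CPM in pair 2, where it ranked 12 and 9 among all miRNAs. Both pairs were higher in 231 -G EV, and the gap between the pairs was wider than that between the media. hsa-miR-20a-5p, the main miR-17 seed product of the chromosome 13 cluster in pair 2, stood at 1794 and 1154 CPM in pair 1 and at 3232 and 5623 CPM in pair 2. It was lower without glucose in the first pair and higher in the second.

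hsa-miR-17-5p, which gives the family its name, had 1087 and 1795 CPM in pair 1 and 187 and 234 CPM in pair 2. hsa-miR-106b-5p, the neighbour of hsa-miR-93-5p in MCM7, had 870 and 641 CPM in pair 1 and 62.2 and 117 CPM in pair 2. For both, each library of pair 1 lay above each library of pair 2, the opposite order to hsa-miR-93-5p, although hsa-miR-106b-5p and hsa-miR-93-5p are cut from the same host gene. The chromosome X members were barely sampled. hsa-miR-20b-5p had 3 and 2 reads in pair 1, against 1 and 1 in pair 2, and hsa-miR-106a-5p had 1 and 3 reads in pair 1 and 1 and 1 in pair 2.

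hsa-miR-18a-5p, the only measured member of the miR-18 family with reads, had 3 and 0 reads in pair 1, and 27 and 44 reads in pair 2, which is 120 and 257 CPM. The 0 of the 231 -G EV library allowed up to 192 CPM, so absence could not be told from low level there. hsa-miR-19b-3p had 2 and 1 reads in pair 1 and 571 and 885 reads in pair 2, or 2538 and 5179 CPM, and hsa-miR-19a-3p had 3 and 2 reads in pair 1 and 193 and 253 reads in pair 2, or 858 and 1480 CPM. Both miR-19 members were within the reach of 3 reads in pair 1 and among the 80 most abundant miRNAs in both libraries of pair 2, in which hsa-miR-19b-3p ranked 46 and 29 and hsa-miR-19a-3p ranked 80 and 63.

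**Figure D1:**
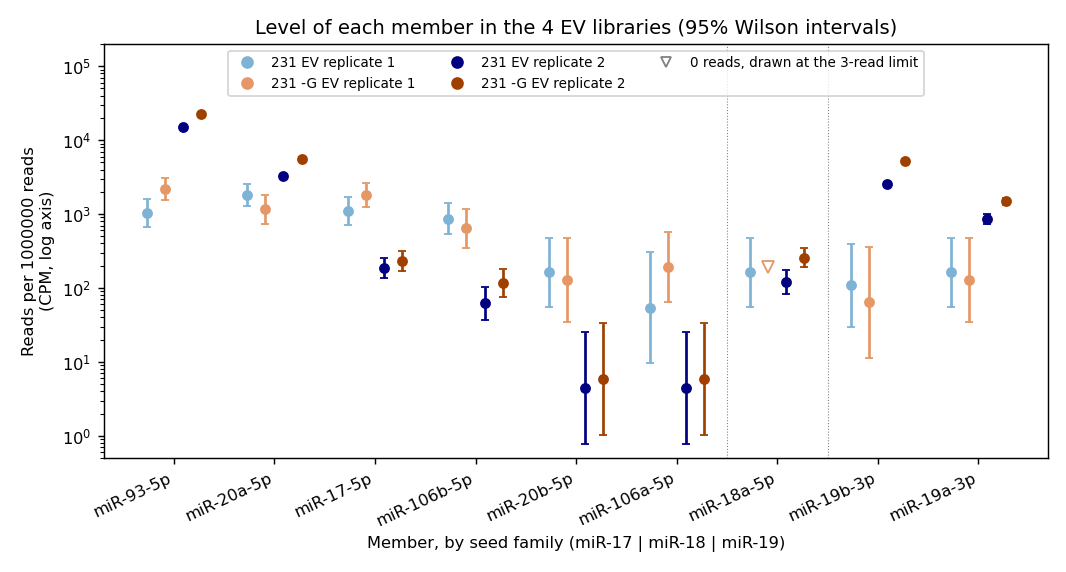
Reads per 1000000 reads of the library (CPM, log axis) of the 9 members in each of the 4 libraries, with 95% Wilson intervals, and with the 0 of hsa-miR-18a-5p drawn as an open triangle at the limit of 3 reads. In pair 2 hsa-miR-93-5p was at 15185 and 22376 CPM and the chromosome X members were at 1 read each, while in pair 1 the 4 members with 10 reads or more lay between 641 and 2180 CPM.

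Within the miR-17 family the members were mixed in different proportions in the 2 preparations. hsa-miR-93-5p held 20.7% (95% Wilson interval 13.6 to 30.0) of the 92 family reads of 231 EV and 35.8% (26.9 to 45.8) of the 95 family reads of 231 -G EV in pair 1. In pair 2 it held 81.3% (80.1 to 82.5) of 4201 and 78.9% (77.7 to 80.0) of 4847 reads. hsa-miR-20a-5p held 35.9% and 18.9% in pair 1 and 17.3% and 19.8% in pair 2. The shares of hsa-miR-17-5p were 21.7% and 29.5% in pair 1, against 1.00% and 0.825% in pair 2, and those of hsa-miR-106b-5p were 17.4% and 10.5% in pair 1 and 0.333% and 0.413% in pair 2. These shares do not depend on the library total. The intervals of hsa-miR-93-5p overlapped between the media of pair 1 and lay far apart between the pairs. In the miR-19 family hsa-miR-19b-3p held 74.7% and 77.8% of the reads in pair 2.

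**Figure D2:**
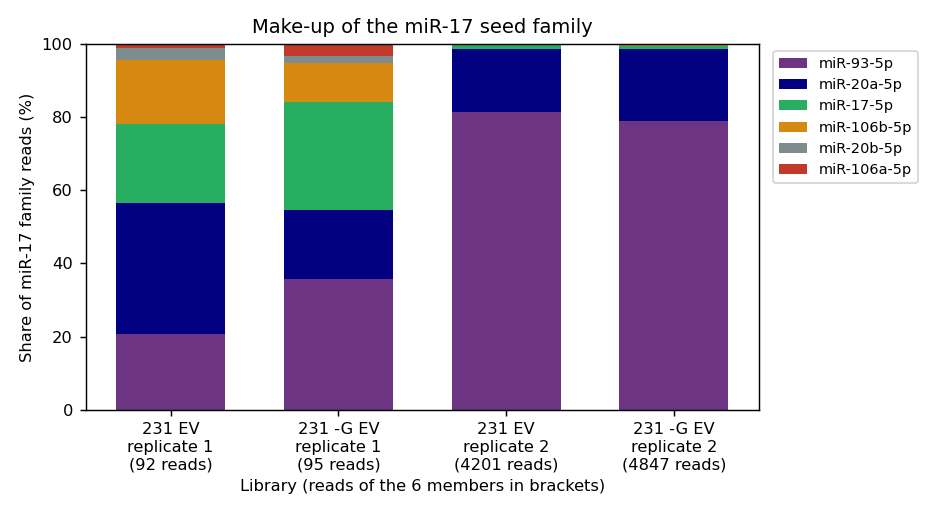
Stacked bars of the share (%) of each of the 6 members in the miR-17 family reads of each library, with the number of family reads in brackets. hsa-miR-93-5p went from 20.7% and 35.8% in pair 1 to 81.3% and 78.9% in pair 2, where hsa-miR-17-5p and hsa-miR-106b-5p together formed a thin band.

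The question of the study's small RNA sequencing was which miRNAs differ in vesicles released without glucose. In pair 2 most abundant members were higher in the 231 -G EV library. By Fisher's exact test of a member's reads against all other reads (two-sided, Benjamini-Hochberg adjusted over all miRNAs with a read in the pair), 5 of the 9 members were higher and 0 were lower. Over all 618 miRNAs of that pair, 9.87% were called higher and 8.74% lower. This test sees small changes only in deep miRNAs. Among those with at least 10 reads in a library of the pair 24.5% were called higher, against 5 of the 7 members at that depth. The share called lower was not counted at that depth. Of the called members hsa-miR-18a-5p had 27 and 44 reads and the others 193 or more, so their depths were not matched. The test compares 2 libraries and not the media, and p-values over the 2 libraries of a group would measure only the spread between these samples.

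The largest ratios among the called members were those of the lowest, hsa-miR-18a-5p, and of hsa-miR-19b-3p. For hsa-miR-18a-5p the share of reads in 231 -G EV over that in 231 EV was 2.15 (95% exact conditional interval 1.30 to 3.60, adjusted p = 0.0117 by Fisher's exact test). For hsa-miR-19b-3p it was 2.04 (1.83 to 2.27, adjusted p = 5.7e-40 by Fisher's exact test), and for hsa-miR-19a-3p 1.73 (1.43 to 2.09, adjusted p = 1.1e-07 by the same exact test). These intervals overlap for hsa-miR-18a-5p and both miR-19 members.

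In the miR-17 family, hsa-miR-20a-5p was higher by a ratio of 1.74 (1.58 to 1.92, adjusted p = 2.1e-28 by Fisher's exact test). hsa-miR-93-5p was higher by 1.47 (1.41 to 1.54, adjusted p = 2.2e-60 by Fisher's exact test), the smallest ratio of the 5 called members and the narrowest interval. The ratio of hsa-miR-106b-5p was 1.88 (0.903 to 4.02) on 14 and 20 reads and that of hsa-miR-17-5p 1.25 (0.792 to 1.98) on 42 and 40 reads, with adjusted p = 0.301 and 0.677 by Fisher's exact test. At these depths neither could be told from 1 or from the 1.47 of hsa-miR-93-5p.

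Pair 1 gave no such picture. By the same test 0 of the 9 members were higher and 0 were lower, where 7.91% of the 670 miRNAs with a read were higher and 1.79% were lower, and 5 of the 9 members had at most 3 reads in both libraries. hsa-miR-93-5p was closest to a call, with a ratio of 2.11 (1.17 to 3.92), an unadjusted p = 0.00849 and an adjusted p = 0.0837 by Fisher's exact test. hsa-miR-17-5p had a ratio of 1.65 (0.898 to 3.09), hsa-miR-20a-5p 0.643 (0.341 to 1.18) and hsa-miR-106b-5p 0.737 (0.299 to 1.73), with adjusted p = 0.584, 0.751 and 0.950 by Fisher's exact test. In this pair the ratios depended on hsa-miR-182-5p. With its reads taken out of the totals, the ratio of hsa-miR-93-5p was 1.06 and that of hsa-miR-20a-5p was 0.324 (0.172 to 0.593, adjusted p = 0.00224 by Fisher's exact test), the only member called, where 2.69% of the 669 miRNAs tested were higher and 5.08% were lower. Under that total hsa-miR-17-5p was at 0.832 (0.452 to 1.56) and hsa-miR-106b-5p at 0.372 (0.151 to 0.871, adjusted p = 0.158 by Fisher's exact test). With the 9 blood and serum miRNAs taken out instead, hsa-miR-17-5p and hsa-miR-93-5p were called higher (adjusted p = 0.0389 and 0.00124 by Fisher's exact test), where 9.67% of 662 were higher and 1.21% were lower. With both taken out hsa-miR-20a-5p was called lower again, where 2.42% of 661 were higher and 4.69% were lower.

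**Figure D3:**
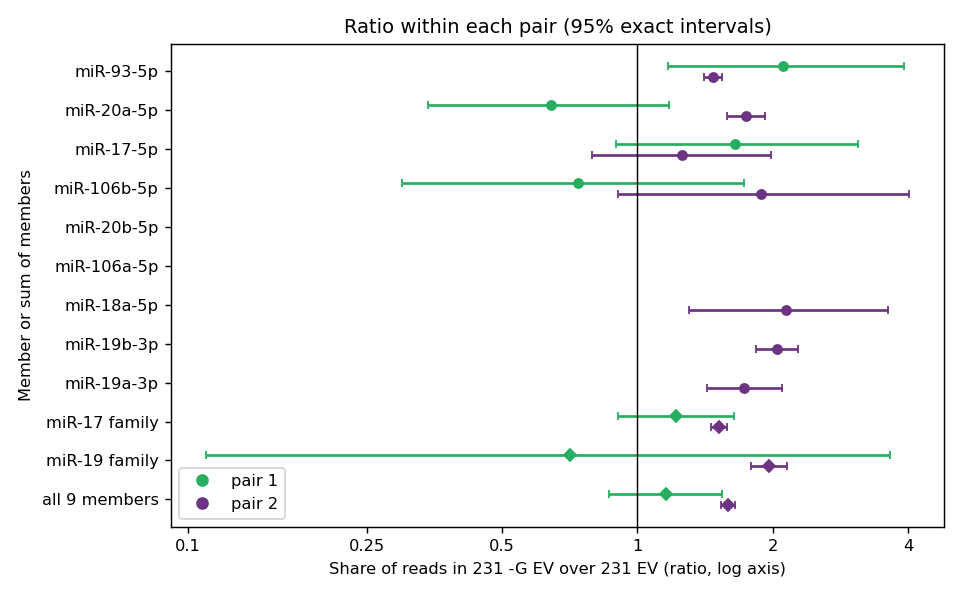
Ratio of the share of reads in 231 -G EV to that in 231 EV (log axis) for each member and for sums of members, in pair 1 and pair 2, with 95% exact conditional intervals; a ratio with at most 3 reads in both libraries is not drawn. Shares are of the full library totals. All 7 drawn members of pair 2 lie above 1, and in pair 1 hsa-miR-93-5p (2.11) and hsa-miR-17-5p (1.65) lie above 1 and hsa-miR-20a-5p (0.643) and hsa-miR-106b-5p (0.737) below.

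The study used a fold of 1.5 to select raised vesicle miRNAs, beside a stricter rule for differential miRNAs in its methods (an absolute log2 fold change above 1 with an adjusted p under 0.05), which is the call rule of the model given further on. The fold of 1.5 was applied in both pairs to CPM values plus 1. No member passed in the same direction in both pairs, where 7.24% of the 539 miRNAs listed in both tables passed higher and 6.68% passed lower. These shares are 39 and 36 miRNAs, and the counts were 28 and 54 with TMM scaling and 15 and 4 with a pseudocount of 100 CPM, with 0 members either way in each. In pair 1 alone hsa-miR-17-5p, hsa-miR-93-5p and hsa-miR-106a-5p passed higher and hsa-miR-20a-5p, hsa-miR-18a-5p and hsa-miR-19b-3p passed lower, 3 of 9 each way, beside 33.8% higher and 18.7% lower over the 539. This split rested on the library total. Without hsa-miR-182-5p in it, hsa-miR-17-5p and hsa-miR-93-5p were at ratios of 0.832 and 1.06. hsa-miR-20b-5p, hsa-miR-106b-5p and hsa-miR-19a-3p were then at 0.396, 0.372 and 0.396, past 1.5-fold lower. Without the blood and serum list instead, hsa-miR-20a-5p and hsa-miR-19b-3p were at 0.906 and 0.830, short of it. The share over the 539 was not counted under these totals. In pair 2 alone 5 members passed higher (hsa-miR-20a-5p, hsa-miR-106b-5p, hsa-miR-18a-5p, hsa-miR-19a-3p and hsa-miR-19b-3p) and 0 passed lower, beside 21.7% and 28.9%. hsa-miR-93-5p, whose ratio was 2.11 and 1.47, missed the threshold in pair 2. The passes of hsa-miR-106a-5p, hsa-miR-18a-5p and hsa-miR-19b-3p in pair 1 rested on 3 reads or fewer in each library. So did the pair 1 ratios of hsa-miR-20b-5p and hsa-miR-19a-3p.

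Over both pairs together the change of no member could be told from 0. The quasi-likelihood test of edgeR, blocked by replicate number, called 0 of the 9 members and 0% of the 384 miRNAs tested (Benjamini-Hochberg). At an unadjusted p under 0.05 it gave 5 of the 384 and 0 of the members, and DESeq2 and limma gave 6 and 13 of the 384 and also 0 of the members. The log2 fold change, positive where 231 -G EV was higher, was 0.80 (SE 0.88) for hsa-miR-93-5p, 0.52 (SE 1.00) for hsa-miR-17-5p, 0.13 (SE 0.94) for hsa-miR-20a-5p and 0.25 (SE 1.09) for hsa-miR-106b-5p. It was 0.61 (SE 1.14) for hsa-miR-19b-3p, 0.44 (SE 1.14) for hsa-miR-19a-3p and 0.13 (SE 1.42) for hsa-miR-18a-5p. Those of hsa-miR-106a-5p (1.14) and hsa-miR-20b-5p (-0.08) had an SE of 2.43 each. All had an adjusted p of 0.999. The smallest SE of a member, 0.88, was close to the size of a 2-fold change. The test reports no SE, so each was taken as the absolute log2 fold change over the square root of the F statistic. It is approximate and unstable at few reads. That of hsa-miR-106a-5p was 0.77 when only miRNAs above 0 in all 4 libraries were fitted.

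The median log2 fold change of the members was 0.44, with 8 of 9 above 0, beside a median of 0.20 over all 384 tested, of which 231 were above 0. With the scaling factors of the trimmed mean of M-values (TMM) both medians shifted down, to 0.07 for the members and -0.14 for all, and hsa-miR-20a-5p and hsa-miR-106b-5p turned negative (-0.28 and -0.20).

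Summed by seed, the families were compared within each pair as ratios of shares, with no test. In pair 1 the miR-17 family made up 0.500% of the 231 EV library and 0.609% of the 231 -G EV library, a ratio of 1.22 (95% exact conditional interval 0.905 to 1.64). In pair 2 it made up 1.87% and 2.84%, a ratio of 1.52 (1.46 to 1.58). Without hsa-miR-93-5p, which held most of the family's reads in pair 2 alone, the ratios were 0.986 and 1.72. The miR-19 family had 5 and 3 reads in pair 1, a ratio of 0.708 (0.110 to 3.64), and 0.340% and 0.666% of the reads in pair 2, a ratio of 1.96 (1.79 to 2.15). In pair 2 the reads of miR-19 for each miR-17 family read went from 0.182 to 0.235, an odds ratio of 1.29 (1.17 to 1.43). This interval between 2 libraries lay above 1, taking each read as independent. In pair 1 the same odds ratio was 0.583 (0.0880 to 3.09). For miR-18 against the miR-17 family it was 1.41 (0.854 to 2.38) in pair 2 and, on 3 and 0 reads, 0 (0 to 2.40) in pair 1. The direction of the differences between the families could not be read in pair 1.

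All 9 members together made up 0.544% and 0.628% of the reads in pair 1, a ratio of 1.16 (0.866 to 1.54), and 2.22% and 3.53% in pair 2, a ratio of 1.59 (1.53 to 1.65). In pair 2 the ratio of the miR-17 family stayed between 1.38 and 1.52 over the other scalings drawn. In pair 1 it was 0.614 (0.456 to 0.827) once hsa-miR-182-5p was removed from the totals, 0.678 with TMM scaling and 1.71 without the blood and serum list, so its direction in pair 1 rested on the total it was divided by.

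**Figure D4:**
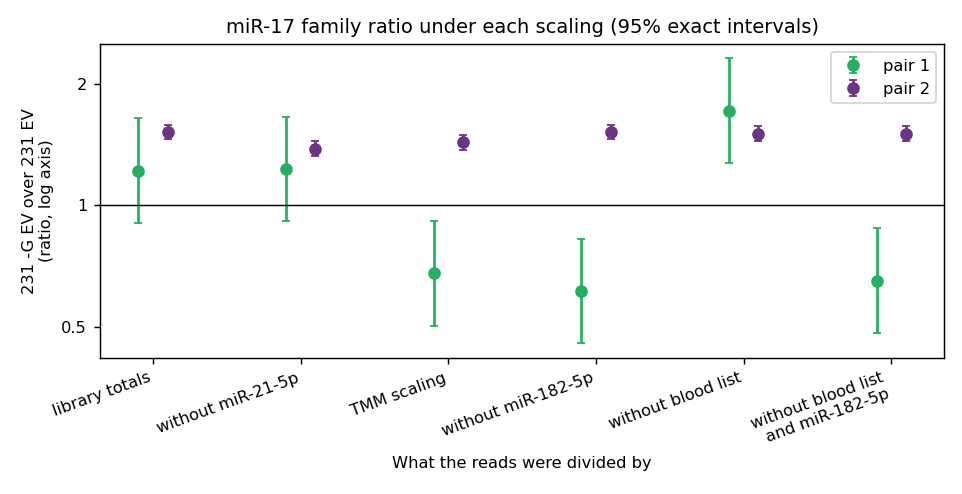
Ratio of miR-17 family reads in 231 -G EV to 231 EV (log axis) in both pairs, with 95% exact conditional intervals, under 6 ways of forming the library total. Pair 2 stays above 1 in all 6, whereas pair 1 lies at 0.614 without miR-182-5p and at 1.71 without the blood and serum list.

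By place in the genome, the 4 members that come from chromosome 13 alone (hsa-miR-17-5p, hsa-miR-18a-5p, hsa-miR-19a-3p and hsa-miR-20a-5p) had a summed ratio of 0.960 (0.642 to 1.43) in pair 1 and 1.73 (1.59 to 1.88) in pair 2. The chromosome 7 members, hsa-miR-93-5p and hsa-miR-106b-5p, had 1.48 in each pair, with intervals of 0.930 to 2.38 and 1.41 to 1.55. In pair 1 this value was 0.747 (0.469 to 1.20) once hsa-miR-182-5p was removed from the totals, 0.826 (0.518 to 1.33) with TMM scaling and 2.09 (1.31 to 3.35) without the blood and serum list. The chromosome 13 sum was not computed under these totals. Its main members in pair 1, hsa-miR-17-5p and hsa-miR-20a-5p, were at 0.832 and 0.324 without hsa-miR-182-5p. Without the blood and serum list they were at 2.32 and 0.906. The chromosome X members had 4 and 5 reads in pair 1, against 2 and 2 in pair 2. The odds ratio of chromosome 13 to chromosome 7 reads was 0.649 (0.346 to 1.21) in pair 1 and 1.17 (1.06 to 1.29) in pair 2. hsa-miR-93-5p supplied nearly all of the chromosome 7 reads in pair 2 (3416 of 3430 and 3824 of 3844).

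The balance between 2 members also does not depend on the total. For hsa-miR-20a-5p against hsa-miR-93-5p it moved in opposite directions in the pairs. In pair 1 there were 33 reads of hsa-miR-20a-5p to 19 of hsa-miR-93-5p in 231 EV and 18 to 34 in 231 -G EV, an odds ratio of 0.309 (95% exact conditional interval 0.126 to 0.731). In pair 2 the reads were 727 to 3416 and 961 to 3824, an odds ratio of 1.18 (1.06 to 1.32). For hsa-miR-17-5p against hsa-miR-93-5p the odds ratios were 0.784 and 0.851, and for hsa-miR-106b-5p against hsa-miR-93-5p 0.354 (0.118 to 1.02) and 1.28 (0.612 to 2.74), with intervals that include 1. Against hsa-miR-20a-5p, hsa-miR-17-5p had an odds ratio of 2.54 (1.06 to 6.27) in pair 1 and 0.721 (0.450 to 1.15) in pair 2. The proportion of hsa-miR-19a-3p to hsa-miR-19b-3p in pair 2 had an odds ratio of 0.846 (0.679 to 1.06).

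The same clusters give other products, read here from a list of 19 other strands and cluster mates. Of these, 9 were in both tables, 2 in that of replicate 1 alone and 3 in that of replicate 2 alone, and 4 were at 0 in every library that lists them. edgeR tested 8 and called 0. The opposite strands of members with at least 10 reads in a library are these, with the seed in capitals, shown because each comes from the hairpin of a member above.
hsa-miR-106b-3p: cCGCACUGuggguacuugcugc
hsa-miR-17-3p: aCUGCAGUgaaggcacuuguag
hsa-miR-18a-3p: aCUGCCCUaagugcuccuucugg
hsa-miR-93-3p: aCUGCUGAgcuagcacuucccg

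The opposite strand of hsa-miR-106b-5p was the more abundant strand in pair 2. hsa-miR-106b-3p had 5 and 12 reads in pair 1 and 258 and 149 reads in pair 2. In pair 2 its share was lower in 231 -G EV, with a ratio of 0.760 (0.617 to 0.934, adjusted p = 0.0428 by Fisher's exact test), beside 1.88 for its 5p strand. The reads of the 3p strand for each 5p read went from 18.4 to 7.45, an odds ratio of 0.405 (0.183 to 0.872). In pair 1 they went from 0.313 to 1.20, an odds ratio of 3.71 (0.884 to 17.9), on few reads.

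hsa-miR-18a-3p had 14 and 6 reads beside 27 and 44 of hsa-miR-18a-5p in pair 2, an odds ratio of 0.267 (0.0746 to 0.848). For hsa-miR-17-3p, with 24 and 11 reads, the odds ratio to its 5p strand was 0.484 (0.188 to 1.19), and for hsa-miR-93-3p, with 20 and 21 reads, it was 0.938 (0.483 to 1.83). These 3 strands were at 0 in both libraries of pair 1. Among the products listed in 1 table alone, hsa-miR-20a-3p had 2 and 2 reads in pair 2, hsa-miR-106a-3p and hsa-miR-92a-1-5p were at 0 in both libraries of pair 2, and hsa-miR-19a-5p was at 0 in both libraries of pair 1. Between the 2 libraries of pair 2, the intervals of hsa-miR-106b and hsa-miR-18a lay below 1 and those of hsa-miR-17 and hsa-miR-93 included 1. With 1 library of each medium in the pair, they cover counting error only.

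Of the cluster mates, hsa-miR-92a-3p, the last product of the miR-17-92 transcript, had 60 and 106 reads in pair 1, a ratio of 2.08 (1.504 to 2.91, adjusted p = 6.7e-05 by Fisher's exact test), and 1801 and 1337 reads in pair 2, a ratio of 0.977 (0.910 to 1.05). It is also made from a copy on chromosome X. Against hsa-miR-20a-5p its odds ratio was 3.22 (1.61 to 6.64) in pair 1 and 0.562 (0.497 to 0.634) in pair 2. hsa-miR-25-3p, which lies beside hsa-miR-93-5p in MCM7 and carries the seed of hsa-miR-92a-3p, had 53 and 144 reads in pair 1, a ratio of 3.20 (2.32 to 4.48), and 3023 and 3868 reads in pair 2, a ratio of 1.68 (1.61 to 1.77). Taking hsa-miR-182-5p out of the pair 1 totals moved these ratios to 1.05 (0.758 to 1.47) for hsa-miR-92a-3p and 1.62 (1.17 to 2.26) for hsa-miR-25-3p, and taking out the blood and serum list instead moved them to 2.93 (2.12 to 4.10) and 4.51 (3.27 to 6.30). Its odds ratio to hsa-miR-93-5p was 1.52 (0.748 to 3.01) and 1.14 (1.07 to 1.22). Its other strand, hsa-miR-25-5p, had 1 and 0 reads in pair 1 and 34 and 15 in pair 2.

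**Figure D5:**
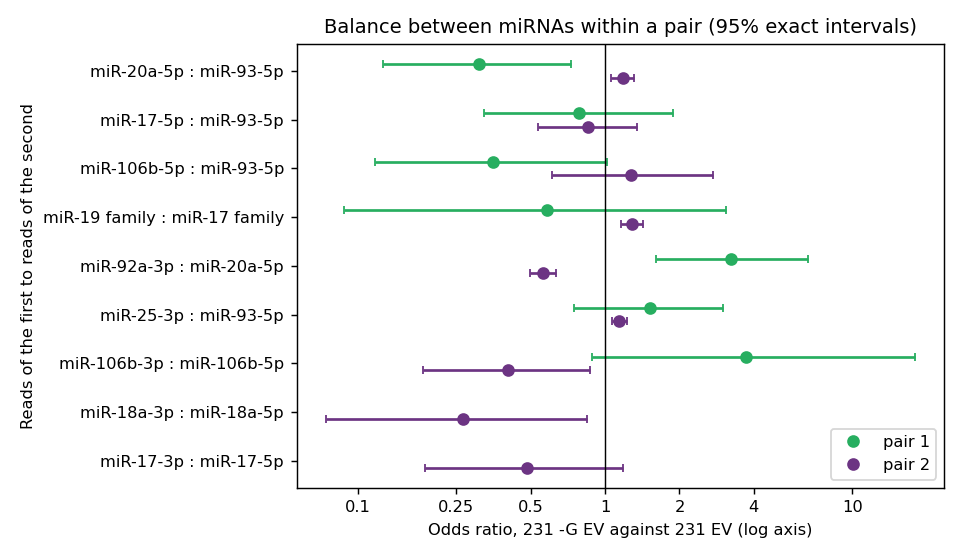
Odds ratio between the media (231 -G EV against 231 EV, log axis) of the reads of one miRNA or family to those of another, in both pairs, with 95% exact conditional intervals; the strands with 0 reads in pair 1 are drawn for pair 2 alone. The balance of hsa-miR-20a-5p to hsa-miR-93-5p lies at 0.309 in pair 1 and at 1.18 in pair 2, and that of hsa-miR-92a-3p to hsa-miR-20a-5p at 3.22 and 0.562.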

How the data were processed

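The submitters' processing notes name hg38, FastQC, cutadapt, Bowtie, Bowtie2, StringTie and edgeR, without roles. The authors deposited read counts per mature miRNA in 2 tables, of 1315 and 843 miRNAs, for replicates 1 and 2. The deposited CPM of replicate 1 and the deposited TPM of replicate 2 both equalled the count over the library total times 1000000. The pairing comes from the labels, which tie the number to the preparation; over 384 miRNAs, libraries with the same number deviated from the group means together, with a correlation of 0.586.

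From the counts, edgeR 4.0.16 (R 4.3.3) was fitted on the miRNAs that both tables list and that have reads in 2 or more libraries, with the deposited totals as offsets and the number as a block. MiRNAs were called at an adjusted p under 0.05 with a log2 fold change beyond 1 either way. Fisher's exact tests and intervals (SciPy 1.17.1) take each read as an independent molecule, which PCR reads are not. They cover counting error at most. Fold thresholds used CPM plus 1. Scripts were tested on simulated data. Alternatives were other scalings and filters, no block, DESeq2 1.42.0, limma 3.58.1 and leaving out libraries. All 9 members were named, and of the other products those with at least 10 reads in a library or listed in 1 table alone. Members, lists and tests were chosen with earlier results of these data known.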

Additional observations from a re-analysis of the deposited data

Results flagged for a closer look

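The odds ratio of hsa-miR-20a-5p to hsa-miR-93-5p reads between the media was 0.309 in pair 1 and 1.18 in pair 2, with intervals on opposite sides of 1, and the difference between the pairs was not tested. The same held for hsa-miR-92a-3p to hsa-miR-20a-5p, at 3.22 in pair 1 and 0.562 in pair 2, again without a test of the difference.

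hsa-miR-363-3p, a product of the chromosome X cluster, was listed for replicate 1 alone and so entered no comparison over both pairs. It had 15 reads in 231 EV and 31 in 231 -G EV, a ratio of 2.44 (1.28 to 4.86, adjusted p = 0.0463 by Fisher's exact test). The ratio was 1.23 (0.644 to 2.45) once hsa-miR-182-5p was removed from the totals and 3.43 (1.80 to 6.84) without the blood and serum list.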

How the results depend on the processing

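Under the alternatives run, no member was called by any model. The number of all miRNAs called went from 0 to 1 once hsa-miR-182-5p was removed from the totals and to 1 with no filter on low counts. Of the log2 fold changes of single members, 65 kept their sign and 15 reversed. That of hsa-miR-20a-5p was -0.28 with TMM scaling, -0.29 without hsa-miR-182-5p and -0.16 with DESeq2, that of hsa-miR-106b-5p was -0.20, -0.22 and -0.060 in the same order, and that of hsa-miR-18a-5p was -1.16 with DESeq2 and -3.13 with limma. With no replicate block, hsa-miR-106b-5p was at -0.30, no call of a member changed, and the common dispersion was 1.60 against 0.301 with the block. Leaving out a replicate number left 1 library a group and no test: the log2 fold changes ranged from -0.63 to 0.80 for hsa-miR-20a-5p, -0.33 to 0.35 for hsa-miR-20b-5p, -0.44 to 0.90 for hsa-miR-106b-5p, -4.53 to 1.10 for hsa-miR-18a-5p, -0.33 to 0.79 for hsa-miR-19a-3p and -0.70 to 1.03 for hsa-miR-19b-3p, and from 3 to 5 members passed 1.5-fold higher and 0 to 3 lower. Over all 539 miRNAs, 12 higher and 7 lower passed 1.5-fold in both pairs among those above 0 in all 4 libraries, and 29 and 49 passed with hsa-miR-182-5p out of the totals. The cause was not tested.

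Members whose reads differed in pair 1 numbered 1 once hsa-miR-182-5p was removed from the totals. They numbered 2 without the blood and serum list and 1 without both, settings chosen after seeing the data. In pair 2 they were 5 under each. Over all miRNAs of pair 2 the calls were counted under the library totals alone, at 9.87% higher and 8.74% lower. Over all miRNAs of pair 1 they came to 2.69% higher and 5.08% lower, 9.67% and 1.21%, and 2.42% and 4.69% under the changed totals, in that order. In the same order the pair 1 ratio was 0.614, 1.71 and 0.651 for the miR-17 family and 0.583, 1.63 and 0.617 for all 9 members, and with TMM scaling 0.678 and 0.644. In pair 2 the ratio without hsa-miR-21-5p was 1.38 for the miR-17 family, 1.78 for miR-19 and 1.45 for all 9, with TMM scaling 1.43 and 1.497 for the first and last, and 1.72 for the miR-17 family without hsa-miR-93-5p. In pair 1, 5 members had 3 reads or fewer in both libraries, and their ratios could not be read there.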
